A study of Mus musculus with 107 samples.

Results

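The granzymes and perforin of cytotoxic lymphocytes were followed as 10 genes, Gzma, Gzmb, Gzmc, Gzmd, Gzme, Gzmf, Gzmg, Gzmk, Prf1 and Nkg7, chosen by name from the 50686 genes of the deposited table. They were measured by RNA sequencing in 107 tumors of 12 mouse syngeneic models, in which mouse cancer cell lines grow under the skin of immunocompetent mice. Base denotes 35 treatment-naive tumors of approximately 100 mm3, NT denotes 36 tumors of mice left without treatment until day 8, and LEN denotes 36 tumors of mice given lenvatinib (LEN), an inhibitor of VEGF and FGF receptors, at 10 mg/kg by mouth once a day for 7 days and sampled on day 8. Every group held 3 tumors, except that Base MC38 held 2. BNL 1ME A.7R.1 (BNL), RAG, 4T1, CT26.WT (CT26), EMT6 and Renca were carried by BALB/cAnNCrlCrlj mice, MC38 and B16-F10 by C57BL/6NCrl, LL/2 by C57BL/6JCrl, MBT2 by C3H/HeNCrl, KLN205 by DBA/2NCrl and Hepa 1-6 by C57L/J mice. The mice were 7 weeks old at implantation, male for the hepatoma lines BNL and Hepa 1-6 and female for the others, and the RAG line had been adapted to growth in vivo. Each model is 1 cell line, and the model cannot be told apart from its host strain.

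Cytotoxic T cells and natural killer (NK) cells kill a target cell by releasing granules onto it. Perforin, the product of Prf1, forms pores in the target membrane, and granzymes are serine proteases that enter through them. Granzyme B cleaves caspases and other substrates after aspartate, granzyme A and granzyme K cleave after basic residues, and the substrates of granzymes C to G, which rodents carry in several copies, are less well known. Nkg7 encodes a granule membrane protein needed for the release of the granules. The tumors were sequenced whole, so fewer cytotoxic cells and less RNA per cell cannot be told apart.

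Gzmb to Gzmg lie in a cluster on chromosome 14 of GRCm38, all on the minus strand, from the start of Gzme at 56117626 to the end of Gzmb at 56262260. The order along the chromosome is Gzme (56117626 to 56120625), Gzmd (56129556 to 56132608), Gzmg (56156582 to 56159579), Gzmf (56205263 to 56211417), Gzmc (56231441 to 56234656) and Gzmb (56258838 to 56262260). Gzma (113093825 to 113100981) and Gzmk (113171608 to 113225908) lie on the minus strand of chromosome 13, Prf1 (61297833 to 61304680) on the plus strand of chromosome 10 and Nkg7 (43437073 to 43438249) on the plus strand of chromosome 7. The first 60 coding bases of the 6 genes of the cluster, from the GENCODE transcripts, are shown because they bear on how far the members can be told apart by reads; capitals mark bases that differ from Gzmd at the same position.
Gzmd: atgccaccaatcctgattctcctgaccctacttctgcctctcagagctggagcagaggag
Gzmg: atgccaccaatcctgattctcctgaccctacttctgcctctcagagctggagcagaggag
Gzmf: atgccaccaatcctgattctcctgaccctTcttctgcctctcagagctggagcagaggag
Gzmc: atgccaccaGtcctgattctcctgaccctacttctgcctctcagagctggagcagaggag
Gzme: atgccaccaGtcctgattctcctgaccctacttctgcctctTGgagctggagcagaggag
Gzmb: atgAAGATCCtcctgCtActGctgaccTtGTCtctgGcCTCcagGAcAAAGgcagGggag

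Gzmg had the same 60 bases as Gzmd, Gzmf and Gzmc differed from it at 1 position, Gzme at 3 and Gzmb at 25. Over the whole coding sequence Gzmd was 93.3% identical to Gzme, 86.8% to Gzmg and 83.6% to Gzmf, against 71.5% to Gzmc, 65.3% to Gzmb and 52.7% to Gzma. Of the 75-base words in the transcript of Gzmd, 5.73% were also present in another of the 8 granzymes, as were 4.75% of those of Gzme and 5.15% of those of Gzmg, and 0% of those of Gzma, Gzmb, Gzmc, Gzmf and Gzmk. Reads from shared stretches were divided among Gzmd, Gzme and Gzmg by estimation, so the split of a level between these 3 is less certain than their sum.

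The 250 bases before the start of Gzmd, Gzme, Gzmf and Gzmg are shown because these neighbours include Gzmf and Gzmg, which were near Gzmd in level in CT26 and far below it in KLN205. They were taken from RefSeq (GRCm38.p6) and are given in the direction of transcription, which is the minus strand; capitals mark TGTGGT or its reverse complement ACCACA, the core letters bound by Runx factors.
Gzmd, chr14:56132594-56132843: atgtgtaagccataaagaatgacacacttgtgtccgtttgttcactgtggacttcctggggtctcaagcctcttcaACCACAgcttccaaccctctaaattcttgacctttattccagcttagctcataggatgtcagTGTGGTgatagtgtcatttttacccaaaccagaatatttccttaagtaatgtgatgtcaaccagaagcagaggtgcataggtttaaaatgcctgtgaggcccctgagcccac
Gzme, chr14:56120626-56120875: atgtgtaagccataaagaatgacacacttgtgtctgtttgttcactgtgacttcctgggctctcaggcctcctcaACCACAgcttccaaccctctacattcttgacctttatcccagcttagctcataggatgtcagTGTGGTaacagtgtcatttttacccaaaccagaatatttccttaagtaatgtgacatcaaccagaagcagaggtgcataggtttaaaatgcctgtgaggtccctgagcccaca
Gzmf, chr14:56211408-56211657: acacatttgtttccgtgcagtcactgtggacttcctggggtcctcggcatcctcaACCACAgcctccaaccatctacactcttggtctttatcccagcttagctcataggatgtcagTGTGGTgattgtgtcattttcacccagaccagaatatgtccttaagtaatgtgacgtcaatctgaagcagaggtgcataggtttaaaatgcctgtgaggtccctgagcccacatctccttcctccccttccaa
Gzmg, chr14:56159580-56159829: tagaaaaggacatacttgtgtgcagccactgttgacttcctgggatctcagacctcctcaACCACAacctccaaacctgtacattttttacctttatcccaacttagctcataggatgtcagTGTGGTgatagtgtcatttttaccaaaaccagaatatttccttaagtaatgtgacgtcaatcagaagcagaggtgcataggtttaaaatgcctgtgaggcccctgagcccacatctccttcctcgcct

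Each of the 4 windows held 1 match as TGTGGT and 1 as ACCACA. The letters were found in 9 of the 10 members and in 14.0% of the 32851 RefSeq promoter windows of this length. AGGTGT, the core of the T-box site, was found in 4 members (Gzma, Gzmk, Prf1 and Nkg7) and in 11.8% of all windows. The whole site AGGTGTGA was found in 1 member, Nkg7, and in 1.12% of all windows. The AP-1 letters TGANTCA were found in 1 member (Gzmb) and in 6.75% of windows, the STAT letters TTCNNNGAA in 1 member (Nkg7) and in 7.02%, and TATAAA in 0 members and in 12.4%. The windows of Gzmd and Gzme were 94.8% identical and those of Gzmf and Gzmg 82.2%, while those of Gzmd and Gzmf shared 74.5% of their aligned bases. Both strands were searched, AGGTGT lies within AGGTGTGA, and a match is a description of letters only.

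Levels are given in TPM, a relative abundance of transcripts that is scaled to transcript length and can be compared between genes. TPM keeps no sequencing depth, so the counting error behind a value is unknown, and a value of exactly 0 is described as listed at 0. Differences are on the log2(TPM + 1) scale, which understates changes at low levels. The share of TPM from protein-coding genes ranged from 27.5% to 66.6% over the tumors, with both extremes in LEN. Each pair of tumors held at most 4.99% identical values, and each tumor was counted as its own sample. Tumors came from different mice, and p-values measure the spread between tumors of a group. The libraries were run on a NovaSeq or a NextSeq instrument, and which tumor was run on which is not given in the sources used here, so no value within an instrument is given and its part in the results was not tested.

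In Base tumors the levels of the effector genes differed widely between models, with Prf1 spanning 0.08 to 23.28 TPM. MC38, Hepa 1-6 and CT26 headed the list for Gzma, Gzmb, Prf1, Nkg7 and Gzmk in one order or another, and KLN205 or Renca stood last for Gzma, Gzmb, Prf1 and Nkg7. All 9 members that reached a mean of 1 TPM differed between models by the F test of limma across Base groups, with Benjamini-Hochberg adjusted p-values from 1.74e-14 for Prf1 to 6.89e-09 for Gzmg. By the same test 93.6% of the 17542 genes tested were called, so this count does not set the members apart from other genes. Ordered by mean log2(TPM + 1), as all orders given here, Prf1 was highest in MC38 (23.09 and 15.65 TPM), followed by Hepa 1-6 (14.37, 13.24 and 23.28), CT26 (18.17, 12.87 and 10.19) and MBT2 (7.55, 5.81 and 4.99). The ranges of neighbours among the first 3 overlapped, and CT26 lay wholly above MBT2. RAG, BNL, EMT6, LL/2, 4T1, B16-F10 and Renca followed with means between 0.443 and 1.44 TPM, and KLN205 was last at 0.08, 0.26 and 0.27 TPM. Over the 12 models, 8 of the 11 neighbours in the order of Prf1 overlapped in range.

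**Figure D1:**
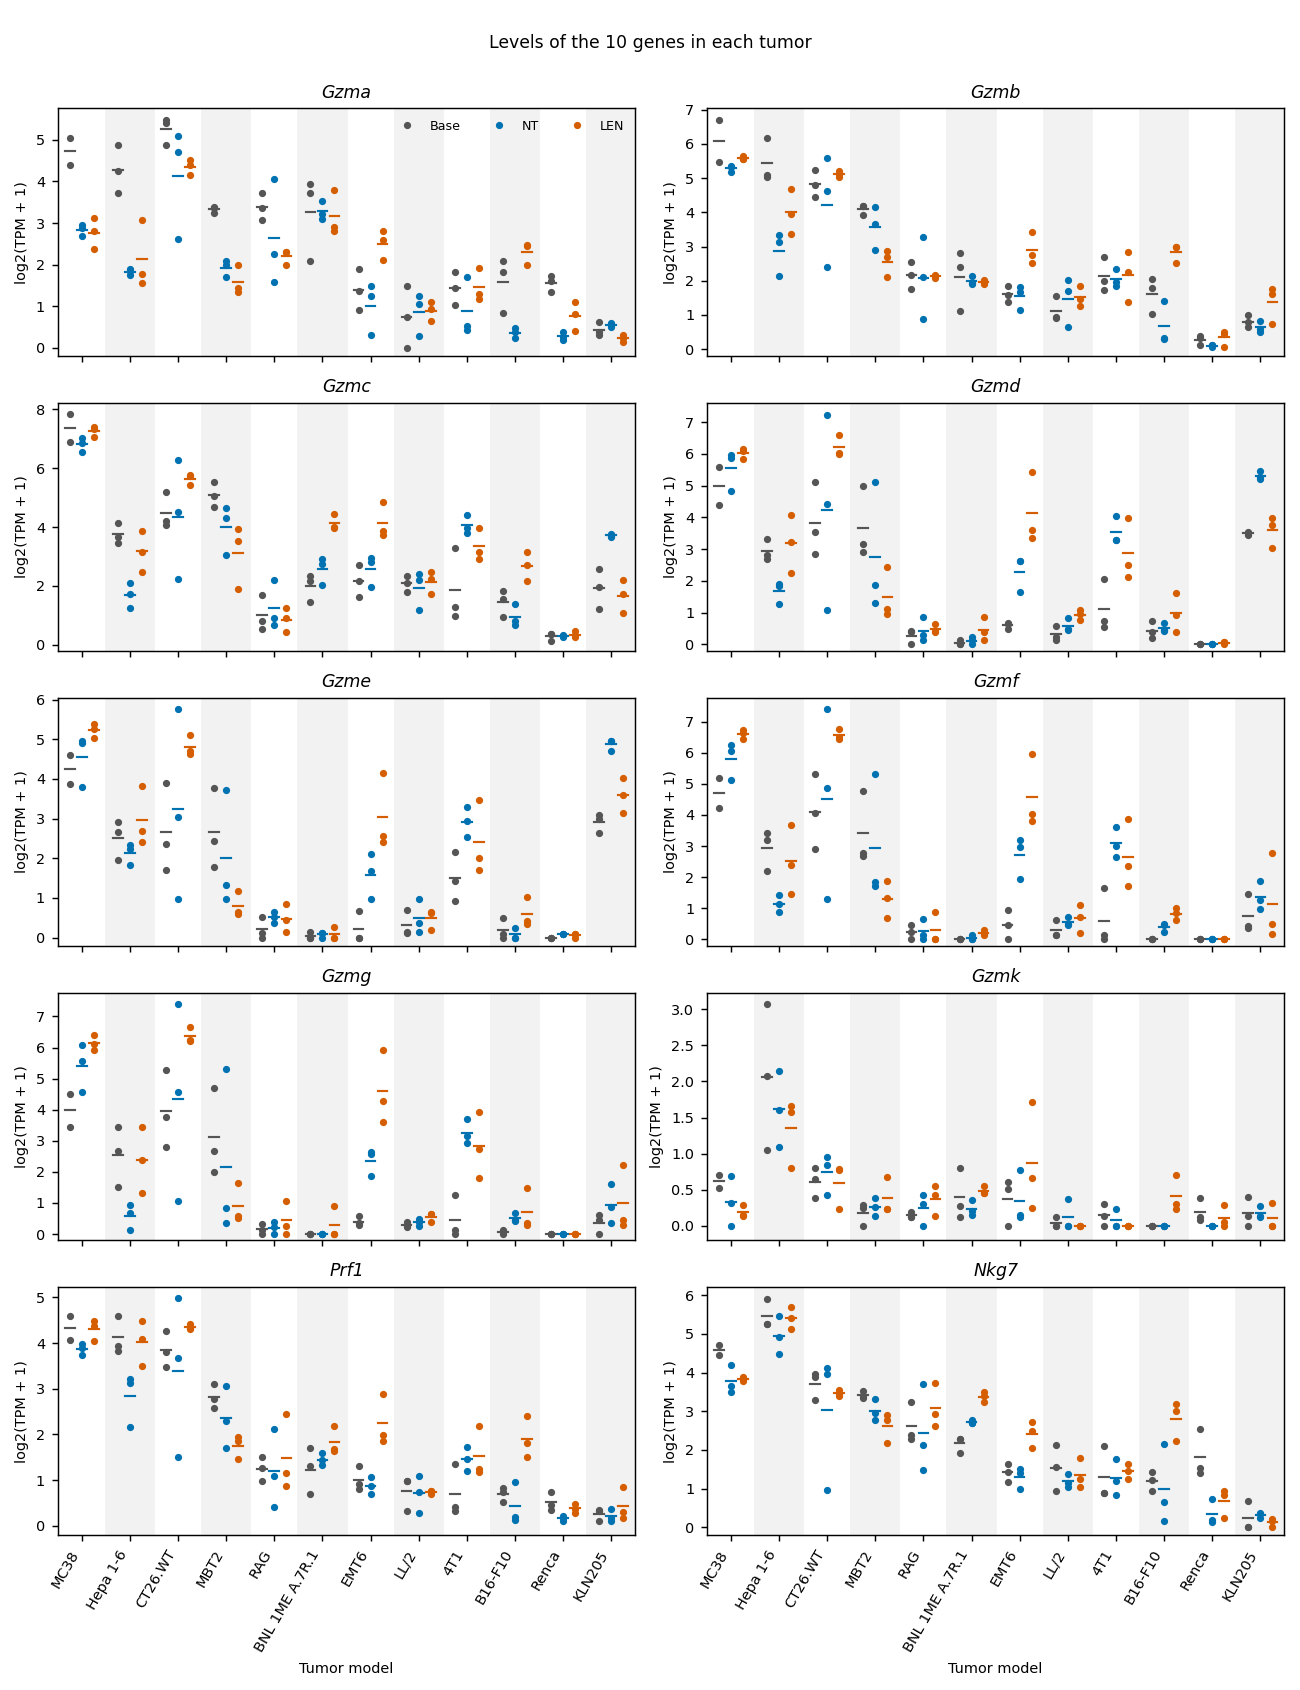
Levels of the 10 genes in every tumor, as log2(TPM + 1) on the y axis, with the 12 models on the x axis in the order of their Base Prf1 mean. Each point is a tumor, bars are group means, and colors give Base, NT and LEN; KLN205, at the right, is near 0 for Prf1 and Nkg7 and high for Gzmd and Gzme.

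Nkg7 was highest in Hepa 1-6, at 37.29, 37.09 and 59.04 TPM in Base tumors. It was 25.24 and 21.04 TPM in MC38 and 14.58, 13.81 and 8.72 TPM in CT26, and these 3 models did not overlap. It was listed at 0 in 2 of 3 Base KLN205 tumors and at 0.61 TPM in the other. Gzmb was highest in MC38 (103.67 and 43.01 TPM), ahead of Hepa 1-6 (32.01, 32.85 and 71.88) and CT26 (37.11, 27.14 and 20.79), and the ranges of these neighbours overlapped. Its lowest Base level was in Renca, at 0.09, 0.31 and 0.25 TPM. Gzma was highest in CT26 (43.81, 41.17 and 28.26 TPM) and overlapped with MC38 (32.22 and 20.23), which overlapped with Hepa 1-6 (17.9, 12.12 and 28.26).

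Gzmk had a mean of 0.43 TPM over all tumors and did not reach the minimum. It was listed at 0 in 30 of 107 tumors and reached 1 TPM in 9. Of those tumors 8 were Hepa 1-6 and 1 was a LEN EMT6 tumor at 2.29 TPM. In Base Hepa 1-6 tumors Gzmk was 1.07, 3.2 and 7.44 TPM, and in no other Base tumor was it above 0.74 TPM. Without a minimum the F test between models in Base tumors gave an adjusted p of 2.02e-05 for Gzmk (limma).

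Gzmc stood apart in MC38, where Base tumors held 225.88 and 118.71 TPM, more than any other member in any Base tumor. MBT2 (44.9, 32.13 and 24.57 TPM) and CT26 (35.26, 15.88 and 17.66 TPM) came next, without overlap with MC38. The lowest levels were in Renca, at 0.29, 0.3 and 0.1 TPM.

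Gzmd, Gzme, Gzmf and Gzmg were high in a few models and close to 0 in the others. In Base tumors the order began with MC38 and CT26 for Gzmd, Gzmf and Gzmg, and with MC38 and KLN205 for Gzme. Gzmf was 35.19 and 17.71 TPM in MC38, 39.02, 15.81 and 6.48 in CT26, 26.07, 5.89 and 5.42 in MBT2 and 8.23, 3.54 and 9.75 in Hepa 1-6. Neighbouring models overlapped in this order. Over all conditions Gzmd was listed at 0 in 11 tumors, Gzme in 15, Gzmf in 23 and Gzmg in 23. Renca accounted for 9 of the tumors at 0 for each of Gzmf and Gzmg, and its highest Gzmd value in any condition was 0.06 TPM.

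The levels of these 4 genes were compared with each other over models and conditions. Over the 36 group means of log2(TPM + 1), Pearson's r was 0.99 between Gzmf and Gzmg and 0.98 between Gzmd and Gzme, against 0.90 between Gzmd and Gzmf and 0.82 between Gzme and Gzmg. The points share the 12 models and the TPM scaling and hold the differences between models, so these values are a description. In CT26, where NT tumors spread most, the replicate 3 tumor held 150.03, 53.03, 167.49 and 167.64 TPM of Gzmd, Gzme, Gzmf and Gzmg, and the replicate 5 tumor 1.1, 0.96, 1.48 and 1.08 TPM. The replicate 5 tumor was also lowest of the 3 in T cell markers, with a summed 5.34 TPM over 8 genes against 36.14 and 43.52 TPM. Among NT MBT2 tumors, replicate 5 held 33.44, 12.15, 38.48 and 38.55 TPM and both others at most 2.65 TPM of each gene. Its T cell markers summed to 26.12 TPM, between those of the other 2 at 23.7 and 35.6 TPM. The part of these markers in the spread was not tested.

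In KLN205 the 4 genes had unlike levels, with Gzmd and Gzme high and Gzmf, Gzmg, Prf1 and Nkg7 low. Gzmd was 10.7, 10.33 and 9.84 TPM in Base, 35.6, 37.39 and 43.25 in NT and 14.84, 7.15 and 12.49 in LEN tumors. Gzme was 5.23, 7.57 and 6.88 TPM in Base, 25.15, 30.15 and 30.05 in NT and 15.36, 7.88 and 11.07 in LEN tumors. The NT tumors lay above both other groups for either gene, without overlap. Gzmf lay between 0.12 and 5.9 TPM and Gzmg between 0 and 3.69 TPM over the 9 KLN205 tumors, with the highest value of each in the LEN replicate 3 tumor, which also had the highest Prf1 level of the model at 0.79 TPM. Prf1 was otherwise at most 0.3 TPM and Nkg7 at most 0.61 TPM.

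The share of Gzmd and Gzme in the summed TPM of Gzmd to Gzmg was taken in the tumors where this sum reached 5 TPM. It was 71.1% to 98.9% (median 96.3%) in the 9 KLN205 tumors and 31.9% to 88.2% (median 44.1%) in 46 tumors of 7 other models. The highest share outside KLN205 was in Hepa 1-6, whose 9 tumors ranged from 44.2% to 88.2%, so the groups overlapped. MC38, CT26 and EMT6 ranged together from 31.9% to 55.2%.

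**Figure D2:**
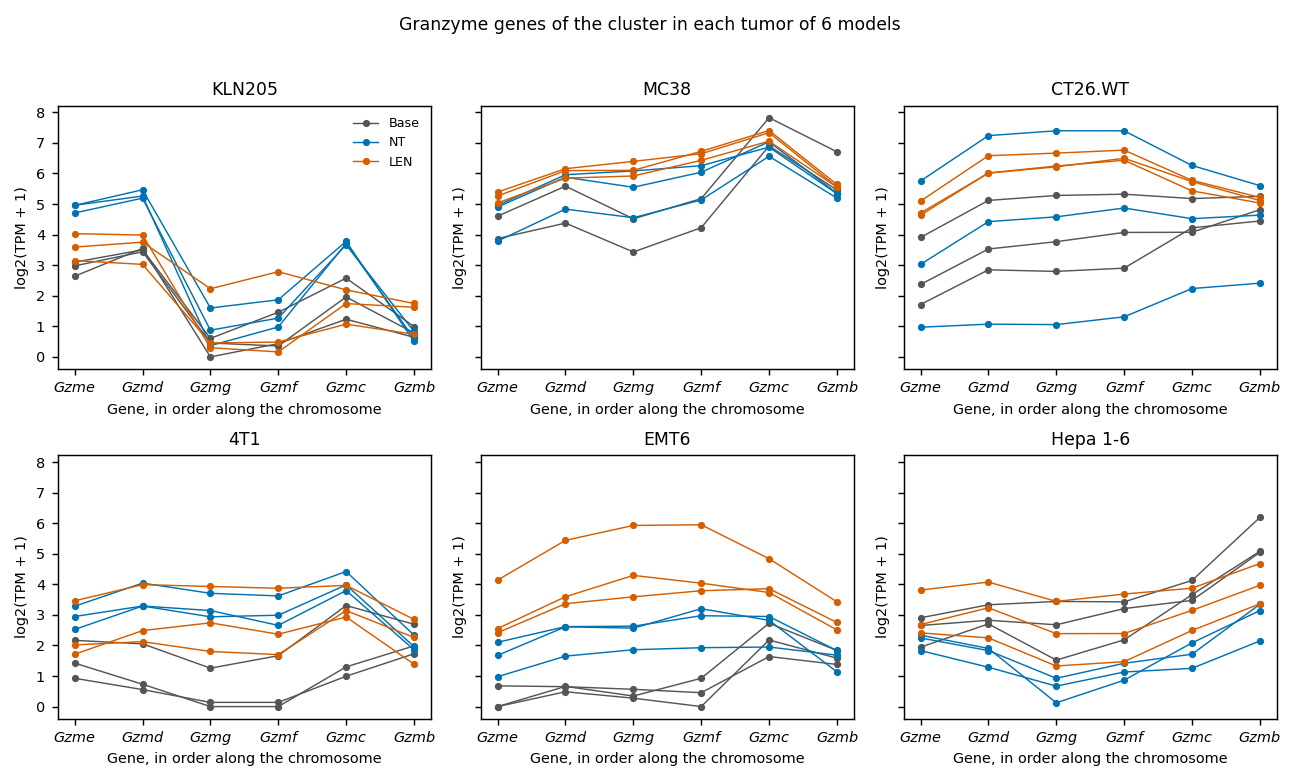
Levels of 6 granzymes as log2(TPM + 1) on the y axis, in their order along the chromosome on the x axis, in every tumor of 6 models. Each line is a tumor and colors give Base, NT and LEN; in KLN205 the lines drop from Gzmd to Gzmg in all 9 tumors, while in CT26 each tumor has like levels from Gzmd to Gzmf.

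The summed T cell and NK cell markers of KLN205 overlapped between NT and both other conditions. The summed level of 8 T cell markers was 3.47 to 4.56 TPM in Base, 3.09 to 4.08 in NT and 2.4 to 3.99 in LEN tumors. That of 8 NK cell markers was 9.63 to 11.57, 10.07 to 12.3 and 7.87 to 12.3 TPM, with Eomes, a T-box factor of NK cells that other cells also express, making up 6.72 to 7.19 TPM in NT tumors. Neutrophil markers summed to 44.33 to 58.98 TPM in NT and 65.18 to 92.28 in LEN tumors, and plasmacytoid dendritic cell markers to 35.07 to 44.38 TPM in Base, 43 to 47.68 in NT and 47.71 to 83.7 in LEN tumors. The plasmacytoid dendritic cell sum of any model follows mainly 1 gene, Bst2. Over all NT and LEN tumors Bst2 had a mean of 181.7 TPM, against 1.18 TPM for Siglech of the same list. Single markers differed without overlap between NT and LEN tumors, Klrd1 at 0.5 to 0.88 TPM in NT and 0 to 0.34 in LEN and Cd3e at 0.65 to 0.78 in NT and 0.79 to 1.14 in LEN, and their part in the result was not tested. Transcripts of both lists were present at low levels, with highest values over the KLN205 tumors of 1.81 TPM for Cd2, 1.48 for Lck, 1.14 for Cd3e, 2.34 for Klrk1, 1.66 for Il2rb and 1.01 for Klrd1. The highest values were 0.19 TPM for Cd8a and 0.11 for Cd8b1, the chains of CD8, and 0.5 for Ncr1 and 0.23 for Klrb1c, receptors of NK cells. In 7 markers of mast cells and basophils the sum was 23.81 to 45.6, 25.36 to 36.96 and 24.17 to 33.7 TPM. Among these Mcpt8, a basophil protease gene on chromosome 14 (56082166 to 56085273), was chosen after its values were seen, at 0.84 to 2.18 TPM in Base, 2.98 to 4.13 in NT and 1.3 to 2.65 in LEN tumors. Every other marker of this list went the other way from Base to NT, with a lower mean in NT tumors and overlapping ranges.

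From Base to NT Gzma and Gzmb fell on average over the models while Gzmd to Gzmg had means above 0 that did not pass the test. This comparison asks how the tumor environment changes while a tumor grows untreated. By limma across 17428 genes, 2 of 9 members tested were lower, against 11.5% of all genes, and 0 were higher, against 17.0% of all genes. The median change of the members was 0.06 and that of all genes 0.01 on the log2 scale. Gzma fell by 0.90 ± 0.13 (SE; Benjamini-Hochberg adjusted p = 1.58e-06 in limma), with a lower mean in 9 of 12 models. Gzmb fell by 0.48 ± 0.14 (adjusted p = 0.0082 in limma), with a lower mean in 11 of 12 models. Without Hepa 1-6 the change of Gzmb was -0.29 (adjusted p = 0.128).

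Prf1 changed by -0.21 ± 0.12 (adjusted p = 0.194) and Nkg7 by -0.35 ± 0.14 (adjusted p = 0.0564 in limma), each with a lower mean in 10 of 12 models. Nkg7 passed the test under both rescalings of TPM and with a minimum of 5 TPM, with adjusted p-values from 0.0347 to 0.0493, and on leaving out 12 of 71 tumors in turn, and Prf1 passed without NT replicate 3 of CT26 (0.0417). The changes were 0.06 ± 0.16 for Gzmc (adjusted p = 0.814), 0.44 ± 0.21 for Gzmd (0.106), 0.42 ± 0.17 for Gzme (0.0553), 0.45 ± 0.21 for Gzmf (0.113) and 0.40 ± 0.24 for Gzmg (0.209 in limma). Without the NT replicate 5 tumor of CT26, which was the lowest of its group in all 10 members, Gzmd, Gzme, Gzmf and Gzmg were all called higher, with adjusted p-values from 0.00557 to 0.0358. Gzme was also called with a pseudocount of 0.1 (0.0198) or a minimum of 5 TPM (0.0484), as were Gzmd (0.0459) and Gzmf (0.0124) with that pseudocount. Leaving out 1 of the 12 models gave a call for Gzmd, Gzme and Gzmf without CT26, Hepa 1-6 or MBT2, for Gzme without B16-F10, for Gzmg without MBT2 and for Nkg7 without BNL, CT26 or RAG, with adjusted p-values from 0.00962 to 0.0495. Gzmk changed by -0.07 ± 0.07 without a minimum (adjusted p = 0.599).

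The change from Base to NT differed between models for 6 of 9 members by the F test, against 66.5% of all genes, so this count does not set the members apart from other genes. These were Gzma (adjusted p = 0.00712), Gzmb (0.0314), Gzmc (0.000403), Gzmd (0.0374), Gzmf (0.0289) and Gzmg (0.0314 in limma), and Gzme (0.11), Prf1 (0.278) and Nkg7 (0.421) did not pass. Gzmc kept its call in every alternative run, and Gzma lost it without Hepa 1-6 (0.0802). Without Hepa 1-6 the adjusted p of Gzmb was 0.828. Leaving out 1 tumor ended the call of Gzmb in 2 cases, both from Hepa 1-6 (Base replicate 3 and NT replicate 3, adjusted p of 0.159 and 0.157), of Gzmd in 11, of Gzmf in 8 and of Gzmg in 6, with adjusted p-values of at most 0.0742 for the last 3. Leaving out 1 of the 12 models ended the call of Gzmd in 4 cases (4T1, EMT6, Hepa 1-6 and KLN205) and those of Gzmf and Gzmg in 3 each (4T1, EMT6 and Hepa 1-6), with adjusted p-values up to 0.200, and of 7 other settings 4 ended that of Gzmb, 3 that of Gzmd and 2 each those of Gzmf and Gzmg. Without NT replicate 3 or 5 of CT26, Gzme (0.00654 and 0.00839) and Prf1 (0.0313 and 0.0294) passed, as did Gzme without NT replicate 5 of MBT2 (0.016).

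In Hepa 1-6, Gzma and Gzmc passed the test as lower in NT than in Base tumors. Gzma was 17.9, 12.12 and 28.26 TPM in Base and 2.35, 2.6 and 2.74 in NT tumors, a fall by 2.44 ± 0.27 on the log2 scale (adjusted p = 0.0332 in limma). Gzmc was 10.11, 11.66 and 16.46 TPM in Base and 2.28, 1.38 and 3.24 in NT tumors, a fall by 2.07 ± 0.26 (adjusted p = 0.046). These groups did not overlap. In this model 0.270% of genes were called lower, and leaving out 1 tumor ended the call of Gzma in 3 cases and of Gzmc in 4 of 6, with adjusted p-values of at most 0.143. Gzmb, at 32.01, 32.85 and 71.88 TPM in Base and 9.18, 3.43 and 7.82 in NT tumors, changed by -2.56 ± 0.41 (adjusted p = 0.0554). Prf1, at 14.37, 13.24 and 23.28 TPM in Base and 7.7, 3.5 and 8.25 in NT tumors, changed by -1.29 ± 0.32 (adjusted p = 0.0788), and neither gene overlapped between the groups. Gzmd (-1.28 ± 0.24, adjusted p = 0.0577), Gzmf (-1.80 ± 0.34, 0.0577) and Gzmg (-1.97 ± 0.48, 0.0776 in limma) were also lower in every NT than in every Base tumor and did not pass. Gzmg, for one, was 5.39, 1.87 and 9.85 TPM in Base and 0.9, 0.59 and 0.09 in NT tumors. The 7 members without overlap, of 10 tested, stand against 28.5% of all genes in this direction. With the spread shared over all groups Gzmb (0.000164) and Prf1 (0.0229) passed the test in limma. The T cell markers summed to a mean of 148 TPM in Base and 116 TPM in NT tumors, and the NK cell markers to 76.4 and 42.9 TPM, with overlap for both. Plasmacytoid dendritic cell markers summed to 198.76 to 220.14 TPM in Base and 127.81 to 168.71 in NT tumors, without overlap, and the part of these cells in the result was not tested.

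Gzma was also lower in NT tumors of 2 other models. In Renca it was 1.55, 2.03 and 2.33 TPM in Base and 0.3, 0.13 and 0.2 in NT tumors, a fall by 1.29 ± 0.21 (adjusted p = 0.014 in limma, with 7.08% of genes called lower). In MBT2 it was 9.21, 8.46 and 9.45 TPM in Base and 2.96, 2.25 and 3.27 in NT tumors, a fall by 1.40 ± 0.13 (adjusted p = 0.0481, with 0.0258% of genes called lower). The groups did not overlap in either model, as in 23.9% of all genes in Renca and 8.79% in MBT2 with NT lower. In Renca only Gzma and Nkg7 were tested. Their NT means were 0.21 and 0.29 TPM, so both reached the minimum of 1 TPM only through the Base tumors, and their calls depend in part on the filter. The call in MBT2 was lost on leaving out 5 of 6 tumors in turn (adjusted p-values up to 0.175), and that in Renca in 0 of the 3 cases in which Gzma reached the minimum. Nkg7 fell in Renca from 1.62, 1.88 and 4.83 TPM to 0.14, 0.09 and 0.65 TPM, by 1.47 ± 0.34 (adjusted p = 0.0402), a call lost in each of the 5 cases tested without 1 tumor (adjusted p-values up to 0.115). With the spread shared over all groups the adjusted p of Gzma was 0.0571 in Renca and 0.246 in MBT2. In Renca the summed T cell markers were 21.58 to 25.9 TPM in Base and 9.66 to 12.91 in NT tumors and the NK cell markers 8.55 to 11.02 and 1.61 to 3.13 TPM, without overlap. Mast cell and basophil markers, at 0.66 to 2.13 and 0.13 to 0.64 TPM, and plasmacytoid dendritic cell markers, at 84.86 to 111.01 and 58.51 to 74.78 TPM, did not overlap either, and the part of these cells in the result was not tested. In MBT2 the neutrophil markers summed to 47.83 to 50.13 TPM in Base and 22.93 to 38.93 in NT tumors, without overlap, and Cd8a was 0.44 to 1.07 and 2.98 to 3.57 TPM, while the sums of the other 4 cell type lists overlapped, and their part in the result was not tested. In MC38, Gzma was 32.22 and 20.23 TPM in Base and 6.79, 6.38 and 5.42 in NT tumors, with an adjusted p of 0.0883. Gzma, Gzmb, Prf1 and Nkg7, 4 of 9 members tested, were lower in every NT than in every Base tumor of MC38, against 13.9% of all genes. Gzmg, 1 of the 9, went the other way without overlap, against 14.1% of all genes. It was 21.9 and 9.8 TPM in Base and 45.85, 22.47 and 66.86 in NT tumors. The NK cell markers of MC38 summed to 73.74 to 87.98 TPM in Base and 46.75 to 50.35 in NT, the T cell markers to 40.59 to 44.11 and 19.25 to 35.44 and the mast cell and basophil markers to 25.29 to 50.46 and 10.18 to 16.71 TPM, without overlap, and their part in the result was not tested.

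Gzmd to Gzmg rose from Base to NT in EMT6, Gzmg in 4T1, and Gzmc, Gzmd and Gzme in KLN205. In EMT6, Gzmf was 0.37, 0.9 and 0 TPM in Base and 6.85, 8.2 and 2.8 in NT tumors, and rose by 2.24 ± 0.39 on the log2 scale (adjusted p = 0.00993 in limma). Gzmg (by 1.96 ± 0.26, adjusted p = 0.00476), Gzmd (by 1.69 ± 0.30, 0.0101) and Gzme (by 1.36 ± 0.37, 0.0402) rose with it, against 17.2% of genes called higher in EMT6. The groups did not overlap for any of the 4 genes, of 8 members tested, as in 28.0% of all genes tested in EMT6 with NT higher. Gzmd, Gzme, Gzmf and Gzmg had Base means of 0.52, 0.20, 0.42 and 0.32 TPM and reached the minimum of 1 TPM only through the NT tumors. Prf1, at means of 1.03 TPM in Base and 0.84 in NT, did not reach it, so the calls and the count depend in part on the filter. Without Base replicates 1, 2 or 3 the adjusted p of Gzme was 0.0511, 0.104 and 0.0978, and with the spread shared over all groups Gzmd (0.0605), Gzme (0.0661) and Gzmg (0.0563) missed the threshold. In the same tumors Gzmb was 1.6, 2.57 and 2 TPM in Base and 2.56, 1.2 and 2.21 in NT, with overlap, and the summed NK cell markers were 10.02 to 11.43 TPM in Base and 6.22 to 8.88 in NT. Plasmacytoid dendritic cell markers summed to 69.42 to 95.3 TPM in Base and 133.52 to 195.64 in NT, also without overlap. This sum follows mainly Bst2, and the mean log2(TPM + 1) of the list was 2.88 in Base and 2.97 in NT. T cell, neutrophil, and mast cell and basophil markers overlapped, and the part of all these cells in the result was not tested.

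In 4T1, Gzmg was 1.39, 0 and 0.1 TPM in Base and 6.66, 7.83 and 12.05 in NT tumors, and rose by 2.80 ± 0.37 (adjusted p = 0.0462 in limma, with 0.390% of genes called higher). The call was lost on leaving out 5 of 6 tumors in turn, with adjusted p-values up to 0.147. Gzmc was 8.89, 1.46 and 0.99 TPM in Base and 14.78, 12.89 and 20.39 in NT tumors, a difference of 2.20 ± 0.58 (adjusted p = 0.101). It did not pass, nor did Gzmd (0.0618), Gzme (0.0897) and Gzmf (0.0698), although the groups did not overlap for any of the 4 genes. With Gzmg these were 5 of 9 members tested, against 23.4% of all genes whose NT tumors lay wholly above the Base tumors. Gzmf and Gzmg had Base means of 0.76 and 0.50 TPM and reached the minimum of 1 TPM only through the NT tumors. The call of Gzmg and this count therefore depend in part on the filter. With the spread shared over all groups Gzmc (0.00374), Gzmd (0.0152) and Gzmf (0.0155) passed in limma. The summed T cell markers of 4T1 were 11.39 to 16.75 TPM in Base and 6.95 to 7.56 in NT tumors. The part of these cells in the result was not tested.

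In KLN205, Gzmd rose by 1.81 ± 0.09 (adjusted p = 0.00118 in limma) and Gzme by 1.97 ± 0.14 (adjusted p = 0.004) from Base to NT. Gzmc was 1.35, 4.97 and 2.89 TPM in Base and 11.71, 12.11 and 12.74 in NT tumors, a rise by 1.80 ± 0.31 (adjusted p = 0.0122), again without overlap. In KLN205 45.8% of all genes were higher in every NT than in every Base tumor, as were these 3 of 4 members tested. In this model 28.3% of genes were called higher. The calls of Gzmd and Gzme held in each alternative run, and that of Gzmc was lost with both rescalings of TPM (adjusted p-values of 0.164 and 0.184) and without NT replicate 3 (0.0513). In BNL, Nkg7 rose from 2.8, 3.88 and 3.89 to 5.87, 5.42 and 5.47 TPM, by 0.55 ± 0.13 (adjusted p = 0.0239, with 23.6% of genes called higher), a call lost without any 1 of the 3 NT tumors (adjusted p-values from 0.0691 to 0.0767), with either rescaling (0.0878 and 0.125) and with the shared spread (0.429).

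Gzma, Gzmb, Prf1 and Nkg7 were higher under LEN on average over the 12 models, relative to NT tumors of the same day. This comparison asks how the drug changes the tumor environment, and it shares its NT tumors with the comparison above, so that a low NT value raises one difference and lowers the other. By limma across 17351 genes, 4 of 9 members tested were higher, against 13.7% of all genes, and 0 were lower, against 9.87%. The median difference of the 9 members was 0.38 and that of all genes -0.0019 on the log2 scale. Prf1 rose by 0.50 ± 0.13 (Benjamini-Hochberg adjusted p = 0.00208), with a higher mean in 11 of 12 models, and kept its call without any 1 tumor or model. Gzmb rose by 0.50 ± 0.13 (adjusted p = 0.00344) and Nkg7 by 0.44 ± 0.13 (adjusted p = 0.00912 in limma), each with a higher mean in 10 of 12 models. Both were lost without B16-F10, with adjusted p-values of 0.0721 and 0.0801.

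Gzma rose by 0.32 ± 0.12 (adjusted p = 0.0471 in limma), with a higher mean in 7 of 12 models. Its call was lost on leaving out 43 of 72 tumors in turn, with adjusted p-values from 0.0509 to 0.0786, and without a minimum on the mean TPM (0.0826) or with upper-quartile rescaling (0.0602). Leaving out 5 of 12 models in turn ended it too, with adjusted p-values of 0.405 without B16-F10, 0.254 without EMT6, 0.0958 without Renca, 0.0731 without 4T1 and 0.0568 without Hepa 1-6. The difference was 0.36 ± 0.15 for Gzmc (adjusted p = 0.0743), 0.28 ± 0.21 for Gzmd (0.358), 0.16 ± 0.16 for Gzme (0.521), 0.38 ± 0.22 for Gzmf (0.227) and 0.51 ± 0.24 for Gzmg (0.116 in limma). Without the NT replicate 3 tumor of CT26, which held the highest Gzmd to Gzmg levels of all 107 tumors, 7 members were called higher, Gzmc (adjusted p = 0.009), Gzmf (0.0475) and Gzmg (0.0175) besides the other 4. Gzmc was also called without NT replicate 2 of RAG (0.0411) or LEN replicate 4 of MBT2 (0.0316) and without the models 4T1 (0.0266), KLN205 (0.0056), MBT2 (0.0148) or RAG (0.0374), and Gzmg without NT replicate 5 of MBT2 (0.0161), and without MBT2 as a whole Gzmf (0.0482) and Gzmg (0.0177) were called. Gzmk differed by 0.06 ± 0.07 without a minimum (adjusted p = 0.626).

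**Figure D3:**
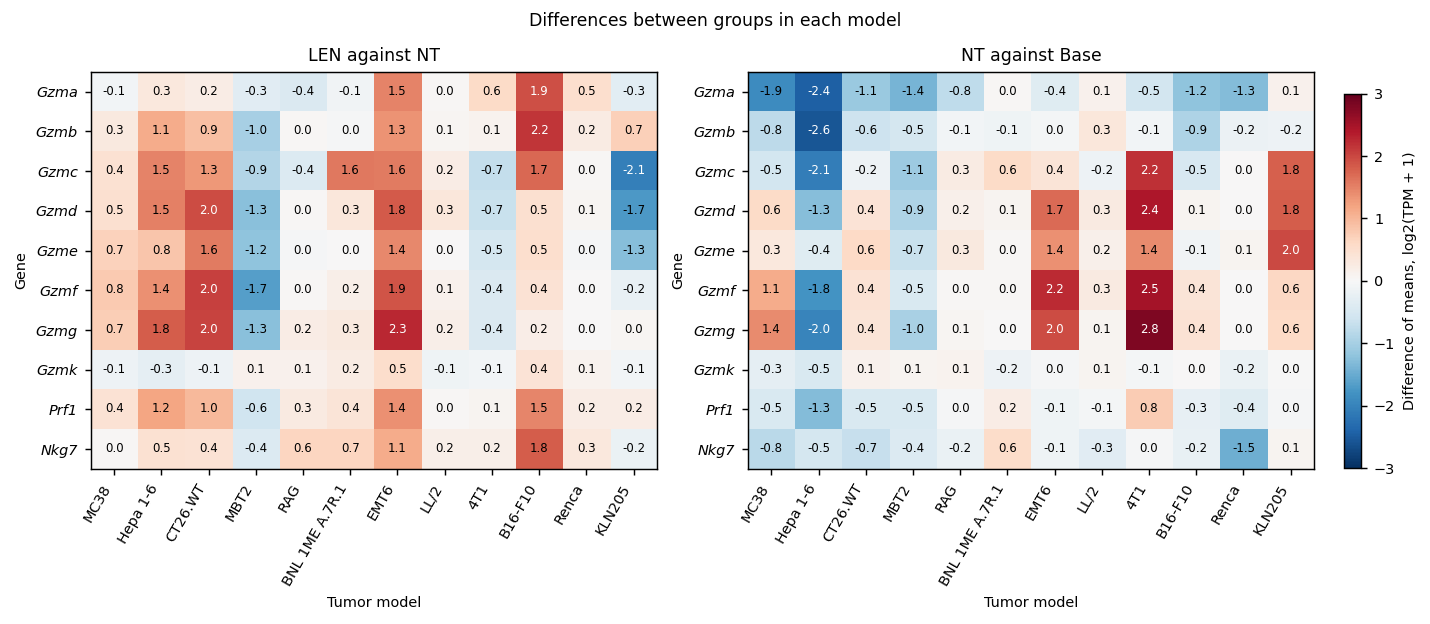
Difference between group means of log2(TPM + 1) for each of the 10 genes (rows) in each of the 12 models (columns), for LEN against NT (left) and NT against Base (right), with red for a higher and blue for a lower mean in the first group. Gzmc is 1.7 higher under LEN in B16-F10 and 2.1 lower in KLN205, and Gzma is 2.4 lower in NT than in Base tumors of Hepa 1-6.

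The effect of LEN differed between models for 5 of 9 members by the F test of 11 contrasts, against 35.3% of all genes. They were Gzmc (adjusted p = 0.00013), Gzmb (0.0121), Gzma (0.0123), Gzme (0.0382) and Gzmd (0.04 in limma). Gzmc kept its call in every alternative run, with a mean difference between -2.05 in KLN205 and 1.71 in B16-F10. Gzma and Gzmb lost theirs without B16-F10 (adjusted p-values of 0.212 and 0.126), and Gzmb also without MBT2 (0.0757). Gzmd lost its call on leaving out 14 of 72 tumors in turn and Gzme on leaving out 12, with adjusted p-values of at most 0.0731. Leaving out 5 of 12 models (BNL, EMT6, Hepa 1-6, KLN205 and Renca) ended the call of Gzmd and 4 (BNL, EMT6, KLN205 and MBT2) that of Gzme, with the highest adjusted p-values of 0.166 and 0.126 without KLN205, as did 3 and 2 of 7 other settings. Prf1 (0.104), Gzmf (0.13), Nkg7 (0.164) and Gzmg (0.202) did not pass, although without NT replicate 3 of CT26 Prf1 (0.00921), Gzmf (0.00475) and Gzmg (0.0125) did, and without NT replicate 5 of CT26 Prf1 (0.0158) and Nkg7 (0.00667) did. Nkg7 also passed without NT replicate 4 of B16-F10 (0.0382).

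B16-F10 held 4 of the 6 pairs of member and model called higher under LEN. Gzma was 0.31, 0.38 and 0.18 TPM in NT and 4.56, 4.48 and 2.95 in LEN tumors, a rise by 1.94 ± 0.20 on the log2 scale (adjusted p = 0.00354 in limma). Gzmb was 0.24, 1.64 and 0.26 TPM in NT and 7.01, 4.68 and 6.98 in LEN tumors, a rise by 2.15 ± 0.33 (adjusted p = 0.0102). Gzmc, at 0.77, 1.59 and 0.6 TPM in NT and 5.53, 3.51 and 7.81 in LEN tumors, rose by 1.71 ± 0.29 (adjusted p = 0.0153). Prf1, at 0.1, 0.95 and 0.15 TPM in NT and 2.49, 1.82 and 4.31 in LEN tumors, rose by 1.47 ± 0.33 (adjusted p = 0.0357), and 8.57% of genes were called higher in this model. The groups did not overlap for these 4 genes or for Nkg7, which was 0.56, 3.41 and 0.12 TPM in NT and 6.98, 8.17 and 3.7 in LEN tumors (adjusted p = 0.0731, and 0.00293 with the spread shared over all groups). These were all 5 members tested in B16-F10, against 20.3% of all genes whose LEN tumors lay wholly above the NT tumors. Gzma, Gzmb, Gzmc and Prf1 had NT means of 0.29, 0.71, 0.99 and 0.40 TPM and reached the minimum of 1 TPM only through the LEN tumors. Gzmd to Gzmg did not reach it. The calls and the count therefore depend in part on the filter, which admitted members by the group where they were high. Without 1 tumor Gzma and Gzmb kept their calls, Gzmc lost its call in 4 of 6 cases (NT replicates 2 and 5 and LEN replicates 2 and 5, adjusted p-values of at most 0.0612) and Prf1 in 5 of 6, all but NT replicate 4 (at most 0.115). Prf1 was also lost without a minimum on the mean TPM (0.0602) and with the replicate block (0.0502).

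Markers of all 5 cell type lists were higher in the LEN than in the NT tumors of B16-F10, without overlap. The summed T cell markers were 3.67 to 9.45 TPM in NT and 22.6 to 31.13 in LEN tumors, and the NK cell markers 1.49 to 5.73 and 19.34 to 21.44 TPM. Mast cell and basophil markers were 0.35 to 0.81 and 5.84 to 11.54 TPM, neutrophil markers 0.84 to 5.87 and 9.35 to 12.96 TPM and plasmacytoid dendritic cell markers 49.63 to 148.29 and 213.12 to 307.55 TPM. Gzmd, Gzmf and Gzmg were at most 0.6 TPM in NT and 2.05 TPM in LEN tumors of this model. Base B16-F10 tumors held 3.25, 2.54 and 0.78 TPM of Gzma, above all 3 NT tumors, with NK cell markers at 6.39 to 8.49 and mast cell and basophil markers at 3.05 to 4.93 TPM, also above those of NT. The part of these cells in the result was not tested.

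In BNL, Gzmc and Nkg7 rose under LEN. Gzmc was 5.66, 6.63 and 3.09 TPM in NT and 15.12, 20.75 and 14.81 in LEN tumors, a rise by 1.58 ± 0.25 (adjusted p = 0.00406 in limma). Nkg7 was 5.87, 5.42 and 5.47 TPM in NT and 8.37, 9.49 and 10.34 in LEN tumors, a rise by 0.66 ± 0.10 (adjusted p = 0.0041), and 26.3% of genes were called higher in BNL. The groups did not overlap for either gene or for Prf1 (adjusted p = 0.181), 3 of 5 members tested, against 38.1% of all genes in BNL with LEN higher. Gzmb, at 2.74, 3.45 and 2.82 TPM in NT and 2.9, 2.76 and 3.05 in LEN tumors, overlapped, and Gzmd to Gzmg were at most 0.86 TPM. With the spread shared over all groups the adjusted p of Nkg7 was 0.313. Summed T cell markers were 26.77 to 31.34 TPM in these LEN tumors against 10.96 to 13.36 TPM in NT, NK cell markers 34.58 to 47.96 against 18.58 to 24.32 TPM, and mast cell and basophil markers 75.83 to 95.42 against 9.71 to 10.46 TPM, and their part in the result was not tested.

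In KLN205 the direction was the opposite for Gzmc, which fell by 2.05 ± 0.26 (adjusted p = 0.0469 in limma) from 11.71, 12.11 and 12.74 TPM in NT to 2.35, 1.1 and 3.57 TPM in LEN tumors. In this model 0.150% of genes were called lower. The call was lost on leaving out 5 of 6 tumors in turn (all but LEN replicate 2), with adjusted p-values up to 0.214, while the groups did not overlap. It was also lost with a pseudocount of 0.1 (0.053), without a minimum (0.153), with protein-coding rescaling (0.0515) and without a trend (0.0753), and held with the spread shared over all groups (0.0146). Gzmd differed by -1.72 ± 0.24 (adjusted p = 0.0564) and Gzme by -1.28 ± 0.21 (adjusted p = 0.0883), and their NT and LEN tumors did not overlap, so that 3 of 6 members tested did not, against 12.7% of all genes with LEN lower. The neutrophil and plasmacytoid dendritic cell sums of KLN205 given above were higher in every LEN than in every NT tumor, and their part in the result was not tested. The LEN and Base tumors of KLN205 overlapped for Gzmc and Gzmd.

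In EMT6, each of the 9 members tested was higher in every LEN than in every NT tumor, as were 16.4% of all genes, and none passed the test. The adjusted p-values of Gzma, Gzmb, Gzmc, Prf1 and Nkg7 lay between 0.0868 and 0.0998 and those of Gzmd to Gzmg between 0.113 and 0.203 (limma), where 127 of 15503 genes were called higher. Gzmb was 2.56, 1.2 and 2.21 TPM in NT and 4.69, 5.74 and 9.76 in LEN tumors. Gzmg was 5.19, 4.92 and 2.63 TPM in NT and 18.59, 11.05 and 59.83 in LEN tumors. The LEN replicate 4 tumor was the highest of the 3 in all members but Gzmk. With the spread shared over all groups Gzma passed the test (adjusted p = 0.0352 in limma). In EMT6 the summed T cell markers were 8.71 to 14.91 TPM in NT and 15.71 to 26.19 in LEN tumors, the NK cell markers 6.22 to 8.88 and 13.42 to 24.67, the neutrophil markers 105.06 to 144.83 and 159.58 to 271.7 and the plasmacytoid dendritic cell markers 133.52 to 195.64 and 255.61 to 299.69 TPM, without overlap. Mast cell and basophil markers overlapped, at 11.34 to 42.74 and 30.59 to 77.29 TPM, and the part of these markers in the differences was not tested. In MBT2, Gzmb was 11.53, 6.43 and 16.67 TPM in NT and 6.38, 5.44 and 3.3 in LEN tumors, without overlap and without a call (adjusted p = 0.278), 1 of 9 members tested against 10.6% of all genes with LEN lower. In the same MBT2 tumors T cell markers summed to 23.7 to 35.6 TPM in NT and 17.88 to 23.34 in LEN, mast cell and basophil markers to 43.22 to 133.64 and 15.08 to 36.36 and plasmacytoid dendritic cell markers to 131.21 to 206.52 and 93.61 to 129.45 TPM, all without overlap, and their part in the difference was not tested. The last sum follows mainly Bst2, and the mean log2(TPM + 1) of that list was higher in LEN (3.44) than in NT tumors (3.23). In Hepa 1-6, 7 of 10 members tested were higher in every LEN than in every NT tumor, all but Gzma, Gzmk and Nkg7, against 24.6% of all genes, with adjusted p-values from 0.101 to 0.224 (limma). The summed markers of all 5 cell type lists overlapped between these groups of Hepa 1-6. In MC38, 5 of 9 were (Gzmb, Gzmc, Gzme, Gzmf and Prf1), against 11.1%, with adjusted p-values from 0.289 to 0.478 in limma. MC38 and CT26 kept high levels under LEN, with Gzmc at 168.56, 132.18 and 160.51 TPM in MC38 and 53.75, 52.31 and 42.13 in CT26.

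The levels of the members were set against T cell and NK cell markers across models. In the 12 Base group means, the mean log2(TPM + 1) of the NK cell markers had Pearson's r of 0.98 with Prf1 (Spearman's rho 0.93), 0.96 with Gzmb (0.86), 0.95 with Nkg7 (0.93) and 0.91 with Gzma (0.90). It was 0.90 with Gzmf (rho 0.55), 0.89 with Gzmg (0.58) and 0.86 with Gzmc (0.66). For Gzmd it was 0.73 (rho 0.44) and for Gzme 0.72 (0.31), and without KLN205 the r of these was 0.89 and 0.88 over 11 models. In NT tumors r with the NK cell markers was 0.91 for Prf1, 0.91 for Gzmb and 0.90 for Nkg7, against 0.44 for Gzmd, 0.46 for Gzme, 0.59 for Gzmf and 0.53 for Gzmg. In LEN tumors it was 0.91 for Nkg7, 0.81 for Prf1 and 0.76 for Gzmb, against 0.33 to 0.44 for Gzmd to Gzmg. With the T cell markers Nkg7 had r from 0.92 to 0.93 and Gzmk from 0.84 to 0.89 in the 3 conditions. With mast cell and basophil markers r lay between 0.23 and 0.76 in Base, 0.39 and 0.54 in NT and 0.25 and 0.56 in LEN tumors. The points share library preparation and TPM scaling, and the values are descriptions over 12 models, whose differences were not tested.

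**Figure D4:**
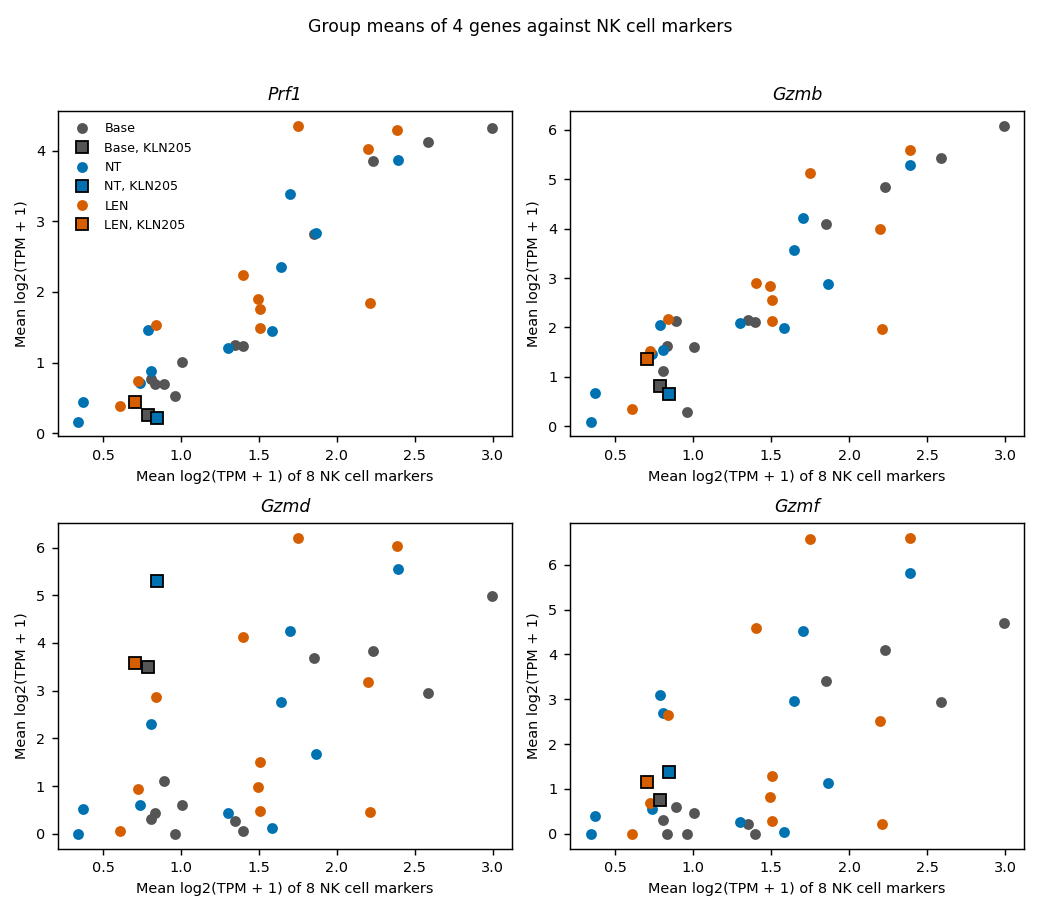
Group means of Prf1, Gzmb, Gzmd and Gzmf on the y axis against the mean of 8 NK cell markers on the x axis, both as log2(TPM + 1), for 12 models in each of Base, NT and LEN; squares with black edges are KLN205. KLN205 lies at the low end of both axes for Prf1 and Gzmb, while its Gzmd means are 3.50 in Base, 5.31 in NT and 3.59 in LEN.

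The genes most like each member, by Pearson's r over the 36 group means among 17419 genes with a mean of at least 1 TPM, also differed between members. For Nkg7 they were Klrd1, the NK receptor subunit CD94 (r = 0.98), Il2rb, a receptor chain for interleukins 2 and 15 (0.97), and Gimap3 (0.97). For Prf1 they were Trim30d (0.93), Il2rb (0.93) and Ido2 (0.91), and for Gzmb Ido2 (0.93), Trim30d (0.93) and Il2rb (0.90). For Gzma they were Ncr1, the NK receptor NKp46 (0.89), Txk (0.87) and the T cell receptor segment Trbc1 (0.87), and for Gzmk Cd8b1 (0.90), Tox (0.89) and Cxcr6 (0.89). For Gzmd the most alike were Ifitm3 (0.84), AC168977.1 (0.81) and Atp2b1 (0.81), the same genes as for Gzme with r from 0.81 to 0.84. For Gzmf and Gzmg they were Ido2 (0.85 and 0.82), Gm2619 (0.81 and 0.80) and Timp1 (0.81 for both), and for Gzmc Sun1 (0.85), Ahctf1 (0.83) and Tma16 (0.83). None of these lists for Gzmc to Gzmg held a marker of T cells or NK cells used here.

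Counts in lists of related genes are read against all genes, of which 13.7% were higher and 9.87% lower under LEN, and 17.0% higher and 11.5% lower from Base to NT. Of 11 other granule genes tested, 2 were higher under LEN, a share near that of all genes, Srgn, the proteoglycan that packs granzymes (0.82 ± 0.07, adjusted p = 1.08e-12 in limma), and Stx11 (0.33 ± 0.08, adjusted p = 0.000947), and 1 was lower, Ctsc, which activates pro-granzymes and fell by 0.32 ± 0.07 (adjusted p = 0.000735). From Base to NT 3 of 11 were lower, Srgn, Cst7 and Ctsw, falling by 0.42, 0.28 and 0.24. Of 6 inhibitor genes 4 were higher under LEN, Serpina3n (0.84), Serpinb9b (0.54), Serpinb6b (0.51) and Serpinb9 (0.35), the last of which encodes the granzyme B inhibitor of lymphocytes. From Base to NT 3 of them were lower, with Serpina3n falling by 1.09, Serpina3g by 0.73 and Serpinb9b by 0.14. Of the regulators and cytokines 3 of 8 were higher under LEN, Il2ra (0.51), Il2rb (0.48) and Il18r1 (0.47), and 6 of 9 were lower from Base to NT, the largest falls being 0.40 for Il2ra, 0.37 for Il2rb and 0.37 for Il18r1. The median differences of these 3 lists were 0.14, 0.44 and 0.09 under LEN. Il2rb and Eomes belong both to the regulators and to the NK cell markers and are counted in each list.

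Under LEN 5 of 7 T cell markers were higher, led by Cd3e (0.47 ± 0.11, adjusted p = 0.000684 in limma), and 4 of 5 NK cell markers, led by Il2rb (0.48 ± 0.11, adjusted p = 0.000368). From Base to NT 3 of 7 T cell markers and 5 of 5 NK cell markers were lower, Ncr1 falling by 0.42 ± 0.09 (adjusted p = 0.000376). Of 5 mast cell and basophil markers tested, 0 were called under LEN and 3 were lower from Base to NT, and of 2 plasmacytoid dendritic cell markers 2 were higher and 1 was lower. Of 3 neutrophil markers 3 were higher under LEN, led by S100a9 (0.90), and 0 were called from Base to NT. The part of these cells in the changes of the members was not tested.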

How the data were processed

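The authors, per the labels and the submitters' processing notes, sequenced libraries depleted of ribosomal RNA from 107 tumors, trimmed reads with Trimmomatic 0.36, mapped them with STAR 2.5.2b to the mouse genome (mm10, GRCm38) and deposited RSEM 1.2.31 estimates as TPM for 50686 genes. TPM keeps no depth, so the counting precision per tumor is unknown. Groups follow the labels. Log2(TPM + 1) values of genes with a mean of at least 1 TPM in the fitted tumors were fitted with limma 3.58.1 (R 4.3.3, mean-variance trend), for all models together (mean contrast and F test) and for each model, and p-values were adjusted over all genes by Benjamini-Hochberg with a threshold of 0.05. On simulated data 200 genes were changed by 1 on the log2 scale in every model. The mean contrast recovered 91.5% of them for LEN against NT (17203 genes, 5.18% of calls not changed) and 89% for NT against Base (17285 genes, 3.26%). The mean differences of the members tested under LEN were smaller, at 0.16 to 0.51, and the fits of single models were not simulated. The shares recovered are therefore not the power of the tests reported here. The members and lists were chosen with earlier results of these data known. In the fit of a single model a member could reach the minimum through 1 group alone, so which members were tested can depend on the change itself. All members are named, with at most 4 genes per other list by size of change and 3 most alike genes per member. Positions came from GENCODE M21, promoters from RefSeq GRCm38.p6. Other settings tried were 0.1 as the pseudocount, a minimum of 0 or 5 TPM, 2 rescalings of TPM, no trend, a replicate block, the spread shared over groups, and leaving out each tumor or model. Python 3.11.15 with numpy 2.4.6, pandas 2.3.3, scipy 1.17.1, Biopython 1.88 and matplotlib 3.10.9 was used for the descriptions.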

Additional observations from a re-analysis of the deposited data

Results flagged for a closer look

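Several members changed by different amounts in different models, by the F test of limma with Benjamini-Hochberg adjustment. For the effect of LEN these were 5 of 9 members against 35.3% of all genes, and for the change from Base to NT 6 of 9 against 66.5%, a share that does not set the members apart. For the effect of LEN the adjusted p was 0.0123 for Gzma, 0.0121 for Gzmb, 0.00013 for Gzmc, 0.0400 for Gzmd and 0.0382 for Gzme. For the change from Base to NT it was 0.00712 for Gzma, 0.0314 for Gzmb, 0.000403 for Gzmc, 0.0374 for Gzmd, 0.0289 for Gzmf and 0.0314 for Gzmg. Both comparisons use the NT tumors. Gzmc was the member with the largest F in either comparison, at 5.5 and 4.48.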

How the results depend on the processing

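The adjusted p of Prf1 under LEN and of Gzma from Base to NT stayed under 0.05 in every alternative run in which the gene was tested. Members called higher under LEN numbered 4 as reported, 2 with a minimum of 5 TPM (Gzma and Prf1 then fell under it and were not tested), 1 without B16-F10, 7 without MBT2 and 3 to 7 without 1 tumor; members differing in the effect of LEN numbered 5 as reported, 3 without a minimum, with protein-coding rescaling or without B16-F10, BNL, EMT6, KLN205 or MBT2, and 3 to 8 without 1 tumor. From Base to NT the members called higher were 0 as reported, 3 with a pseudocount of 0.1 or without CT26 or Hepa 1-6, 1 with a minimum of 5 TPM or without B16-F10, 4 without MBT2 and 0 to 4 without 1 tumor; those called lower were 2, 1 without Hepa 1-6 and 2 to 4 without 1 tumor; those differing between models were 6, 2 without a minimum or with upper-quartile rescaling, 3 without 4T1 or EMT6, 1 without Hepa 1-6 and 2 to 8 without 1 tumor. The mean change of Gzmc from Base to NT (0.06) turned to -0.0193 without CT26 NT replicate 3 (-0.0193 to 0.148 over all tumors left out), -0.13 without 4T1 and -0.10 without KLN205. Of pairs of member and model, LEN raised 6 and lowered 1; these were 2 and 3 with a minimum of 5 TPM, 0 lowered without a minimum or trend, 3 lowered with upper-quartile rescaling, and 4 to 7 and 0 to 2 without 1 tumor. From Base to NT 9 pairs rose and 5 fell; 4 rose and 3 fell with a minimum of 5 TPM, 5 rose with either rescaling, 3 fell with upper-quartile rescaling, 1 without a minimum, 2 without a trend, and 8 to 12 rose and 3 to 9 fell without 1 tumor. The replicate block left 3 raised and 2 lowered pairs under LEN and 3 fallen pairs from Base to NT, and could not be fitted in 4 models and 1 model. Same-numbered tumors came from different mice, with correlations of deviations from -0.08 to 0.08 (LEN against NT, 20 pairs) and -0.14 to 0.10 (25 pairs), so they share only a number. The cause of these changes was not tested. Depth is unknown, and an exact permutation test of 3 against 3 tumors cannot go below 0.1.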
